A study of Mus musculus with 64 samples.

Results

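The genes described here encode the nuclear subunits of the mitochondrial respiratory chain and of the ATP synthase. They were chosen by symbol alone: every gene of the expression table whose symbol began with Nduf, Uqcr, Atp5 or Cox followed by 4, 5, 6, 7 or 8, together with Sdha, Sdhb, Sdhc, Sdhd and Cyc1. The rule found 81 of the 5647 genes measured. Of these, 36 encode subunits of complex I, 4 encode complex I assembly factors (Ndufaf1, Ndufaf3, Ndufaf7 and Ndufaf8), 4 complex II, 9 complex III, 12 complex IV and 16 complex V, the ATP synthase. Ndufa4 was counted with complex IV, where structural work places it.

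The respiratory chain sits in the inner mitochondrial membrane. Complex I takes electrons from NADH and complex II from succinate, complex III passes them through cytochrome c to complex IV, which reduces oxygen, and the proton gradient built on the way drives complex V to make ATP. Most subunits are encoded in the nucleus, a few core subunits in mitochondrial DNA, and microglia, the resident macrophages of the brain, are known to shift between respiration and glycolysis when they meet bacterial products.

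The libraries were bulk RNA-seq of microglia from wild-type C57BL/6J mice, gated on CD11b and on a low level of CD45, 1 mouse per library and 64 libraries in all. All mice of the ageing comparison carry the label PBS. The F series (labelled female) held 26 PBS libraries: 4 at 3 months, 2 at 6, 3 at 9, 4 at 12, 5 at 14, 5 at 16 and 3 at 24. The M series (labelled male) held 27: 4 at 3 months, 4 at 6, 4 at 9, 2 at 12, 4 at 16, 5 at 19 and 4 at 24. A further 11 libraries of the F series came from mice killed 2 h after an intraperitoneal injection of 0.5 mg/kg lipopolysaccharide (LPS, a component of the bacterial outer membrane) at 3, 14 and 24 months (3, 5 and 3 libraries). Values are batch-adjusted FPKM, that is, fragments scaled by transcript length and library size, after the study's correction between batches. The read depth is unknown, and per library the values add up to 408457 to 554459.

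In some libraries Eif2s3y, the only Y-linked gene found in the table, went against the sex label. Whether the labels or the adjustment between batches account for it cannot be told apart here. Eif2s3y was at 20 or more, a level typical of the M series, in 3 of 4 F libraries at 3 months (16 to 41), in 1 of 3 at 24 months (4 to 27) and in 1 of 3 LPS libraries at 24 months (14 to 35). It was under 20 in 1 of 4 M libraries at 9 months, 3 of 5 at 19 months and 4 of 4 at 24 months (8 to 16). The 6 markers of microglia were present in every group. Their mean log2(value + 1) was 10.93 in F libraries at 3 months and 10.42 at 24 months. None of the neuron markers looked for was measured, but all 12 markers of neutrophils and all 6 of border macrophages were. The mean log2(value + 1) of the neutrophil markers was 7.24 to 8.64 in F libraries at 3 months. Over all libraries it ran from 2.98 (F library 1 at 9 months) to 9.28 (M library 2 at 16 months). How much of the RNA came from such cells was not tested. Because the samples were bulk RNA, fewer cells of a type and less RNA per cell cannot be told apart.

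The respiratory genes were expressed well above the typical gene of the table. Their mean values over all libraries had a median of 75.6, against 26.3 for all genes, 76 of the 81 lay above the median of all genes, and none of their 5184 values was 0. They took between 1.13% and 1.87% of the summed values of a library. Cox4i1, the ubiquitous form of a complex IV subunit that binds regulatory nucleotides, was the highest at a mean of 296, and Ndufaf1, an assembly factor of complex I, the lowest at 11.6. Among complex I subunits the means ran from 12.4 (Ndufa11) to 150 (Ndufb8). They ran from 68.3 (Sdhc, a membrane anchor) to 141 (Sdhb, the iron-sulfur subunit) in complex II, from 29.1 (Uqcrq) to 213 (Uqcrc1, a core protein) in complex III, from 31.1 (Cox7b) to 296 in complex IV and from 27.7 (Atp5g3) to 212 (Atp5b, the catalytic β subunit) in complex V. Ndufaf8, a partner of another complex I assembly factor, was the highest assembly factor at 28.2. None of the tissue-restricted isoforms Cox4i2, Cox6a2, Cox6b2, Cox7a1, Cox8b and Ndufa4l2 was among the 81 genes that the rule found. None of the 13 subunits encoded by mitochondrial DNA was found among the genes measured.

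The genes are spread over 19 chromosomes, with at most 7 on any of them. In the 300-base promoters of RefSeq (GRCm38.p6, 250 bases before to 50 after the gene start), 68 of the 81 genes had an entry. Motifs of 3 factors known from promoters of respiratory genes were searched on both strands. They were GCGCA, any base and GCGC for NRF1, CCGGAAG for GABPA (NRF2) and AAGATGGCG for YY1, of which CCGGAAG can share its last 3 letters with the start of AAGATGGCG. A gene was counted where any of its entries held the motif. The NRF1 motif was found for 17 of 68 genes (25%), against 12.8% of the 4626 measured genes with an entry. It was in 4.6% of all 32851 promoters, a share per entry and not per gene. By complex it was found for 7 genes of complex I, 2 of complex II, 1 of complex III, 1 of complex IV and 6 of complex V. The GABPA motif was found for 18 genes (26.5%), close to the 25.3% of measured genes, and the YY1 motif for 8 (11.8%, against 4.8%). A match is a description of the letters only. The sites below, with the motif in capitals, belong to genes described in the results and are written 5′ to 3′ on the gene's own strand.
Atp5h, NRF1, chr11:115420041-115420070 (minus strand): gaccccgacgGCGCAGGCGCcgcgcccgcc
Sdha, NRF1, chr13:74350319-74350348 (minus strand): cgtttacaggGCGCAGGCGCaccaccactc
Cox6a1, NRF1, chr5:115349101-115349130 (minus strand): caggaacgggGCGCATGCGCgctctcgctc
Uqcr11, GABPA, chr10:80406870-80406898 (minus strand): ttctctcctccCCGGAAGtagatgtcaat
Atp5e, GABPA, chr2:174464186-174464214 (minus strand; the motif lies on the other strand): tacggccacagCTTCCGGtagccgctcgg

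In the F series, the level of the respiratory genes was lowest at 9 months and highest at 24 months. The mean log2(value + 1) over the 81 genes was 6.23 at 3 months (range of the libraries 6.11 to 6.31), 5.95 at 9 months (5.84 to 6.14), 6.25 at 16 months (6.13 to 6.39) and 6.58 at 24 months (6.53 to 6.62). The 3 libraries at 24 months lay above all other F libraries. At 14 months the 5 libraries were the most scattered of the F series, from 5.86 to 6.46. As a share of the summed values, the genes took 1.42% ± 0.06 (SD, n = 4) at 3 months and 1.76% ± 0.04 (n = 3) at 24 months.

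**Figure D1:**
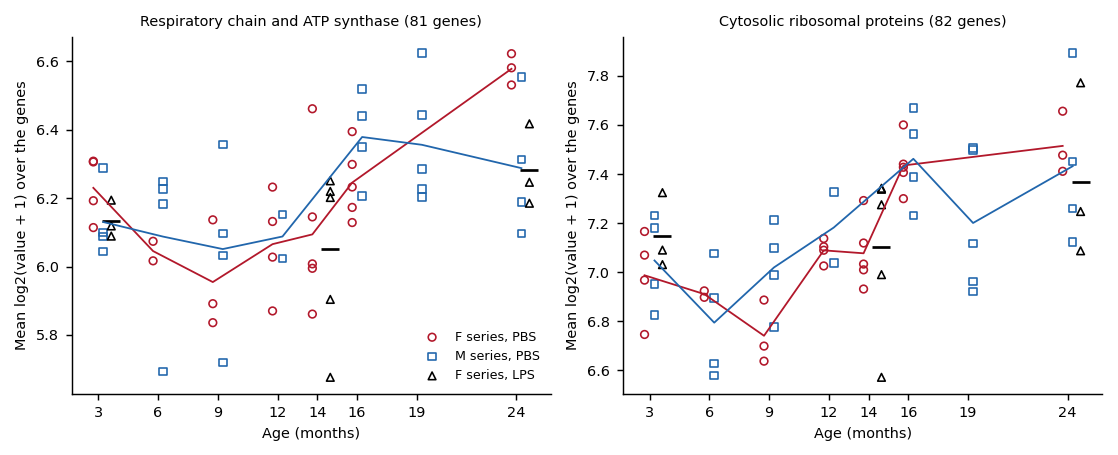
Mean log2(value + 1) per library against age in months for the 81 respiratory genes (left) and the 82 cytosolic ribosomal protein genes (right); circles are F series PBS libraries, squares M series PBS, triangles F series LPS, lines join PBS group means and black bars are LPS group means. F series libraries at 24 months lie between 6.53 and 6.62, above those at 3 months (6.11 to 6.31), and the ribosomal protein genes are also higher at 24 than at 3 months.

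The first comparison asked which respiratory genes differed from 3 months at any age of the F series. A gene was called where the adjusted p of limma (Benjamini-Hochberg over all 5647 genes) was under 0.05 and the fold over 1.5. In the test across the 7 ages 8 of 81 genes were called, against a background of 14.8% of all genes. Ndufv3, a small accessory subunit of the NADH-oxidizing module of complex I, deviated most, by -1.02 (log2) at 6 months (adjusted p across the ages = 0.0037). The adjusted p-values of this paragraph test all ages together, not the age named. For the complex V genes Atp5mpl, a small membrane subunit, and Atp5e, the ε subunit, the largest deviation was a fall at 9 months (-0.73 and -0.69, adjusted p across the ages = 0.0017 and 0.00081). The complex I accessory genes Ndufa6 (-0.67) and Ndufa3 (-0.63) also had it at 9 months. For Uqcr11 (0.69) and Uqcr10 (0.59), small subunits of complex III, and Atp5h (0.63), a subunit of the peripheral stalk of complex V, it lay at 24 months. For Uqcr10 it turned to a lower value with the replicate number as a block (-0.55), with only the libraries whose Eif2s3y level went with the label (-0.61) and without 3-month library 1 (-0.54). The count of called genes was 4 without 3-month library 1 or 24-month library 2, 5 without 3-month library 2, 3 or 4, 6-month library 1 or 24-month library 1, 13 without 14-month library 3 and 5 with the replicate block. After scaling to equal totals or by median ratios, Ndufv3 was the 1 gene still called, and Atp5e then had its largest deviation upwards (0.52 with median ratios).

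Ndufv3 (chr17:31520115-31531331, plus strand, GRCm38) stood at 75, 77, 77 and 79 in the 3-month F libraries. At 6 months it was at 36 and 39, at 9 months at 52, 55 and 55, and at 24 months at 117, 124 and 131. The 6- and 9-month libraries therefore lay below, and the 24-month libraries above, every library at 3 months. Of all genes, 27.7% lay below every 3-month library at 6 months and 16.9% at 9 months, and 13.1% lay above at 24 months. Single libraries stood high in between, with 122 beside 60, 64 and 72 at 12 months and 130 beside 52, 57, 67 and 70 at 14 months. With 2 libraries at 6 months, that age alone did not pass the test (adjusted p = 0.091).

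At 9 months, 2 of 81 genes fell (background 2.66% of genes, 2.32% lower). Atp5e (chr2:174461072-174464105, minus strand) was at 85, 90, 107 and 112 at 3 months and at 56, 61 and 64 at 9 months, without overlap (log2 difference -0.69, SE 0.17, adjusted p = 0.030). Atp5mpl (chr12:111961375-111966977, minus strand) was at 61, 65, 74 and 83 at 3 months and at 31, 43 and 55 at 9 months (-0.73, SE 0.19, adjusted p = 0.035). Both calls were lost without 3-month library 2, 3 or 4 or 9-month library 1 or 3 (adjusted p from 0.055 to 0.17), and the call of Atp5mpl also without 3-month library 1. Without 9-month library 2, 5 genes were called, and without 9-month library 1 the single call was Ndufs6, an accessory subunit of complex I. All 36 complex I subunits lay below their 3-month level (median -0.30), as did 14 of 16 complex V genes (-0.26) and 9 of 12 complex IV genes (-0.24), while the median of all genes was itself -0.19. Among genes whose longest transcript was under 1000 bases, the median was -0.29 for respiratory and -0.28 for other genes. From 1000 to 2000 bases it was -0.25 and -0.22, and from 2000 to 4000 bases -0.23 and -0.16. These gaps were not tested. The 9-month libraries lay below all 3-month libraries for 21 of the 81 genes, where 16.9% of all genes did. The 11 genes called core subunits below are a fixed choice from each complex (Ndufs1, Ndufv1, Sdha, Sdhb, Uqcrc1, Uqcrfs1, Cyc1, Cox4i1, Cox5a, Atp5a1 and Atp5b). Cox4i1, Cox5a and Uqcrc1 among them hold no redox centre, and the catalytic subunits of complex IV are encoded in mitochondrial DNA. At 9 months the 11 genes ranged from -0.36 (Sdhb) to 0.12 (Cyc1).

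At 6, 12 and 14 months no respiratory gene was called by limma (background 0.301%, 9.07% and 3.31%), and at an unadjusted p under 0.05 with the same fold 1, 3 and 0 genes were lower (8.15%, 16.3% and 11.4% of all genes passed). The medians of the respiratory genes were -0.19, -0.17 and -0.12, beside -0.16, -0.19 and -0.19 for all genes, and at 12 and 14 months they turned positive after scaling (0.04 and 0.06 with median ratios). The smallest adjusted p was that of Atp5j2, a membrane subunit of complex V, at 12 months (-0.55, 0.058) and of Atp5c1, the rotating γ subunit, at 14 months (-0.47, 0.091). Core subunits ranged from -0.26 to 0.24 at 6 months, from -0.42 to 0.19 at 12 and from -0.29 to 0.03 at 14. Without 12-month library 1 Atp5j2, and without 12-month library 3 Ndufaf7, would have been called.

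At 16 months 1 gene fell (background 9.01%). It was Ndufaf7 (chr17:78937136-78948052, plus strand), a methyltransferase that modifies a core subunit of complex I during assembly. Its values were 24, 28, 31 and 32 at 3 months and 13, 14, 16, 18 and 25 at 16 months, so that the highest 16-month library overlapped the 3-month group (-0.74, SE 0.24, adjusted p = 0.049). The call was lost without any of the 4 libraries at 3 months or any of libraries 1 to 4 at 16 months (adjusted p from 0.064 to 0.12). The complexes lay on different sides of 0 at this age, a difference that was not tested. All 12 complex IV genes were above their 3-month level (median 0.19), as were 7 of 9 complex III and 12 of 16 complex V genes (0.14 and 0.13), whereas 26 of 36 complex I subunits were below it (-0.13). The core subunits ranged from -0.28 (Ndufs1) to 0.31 (Cox4i1), and the median of all genes was -0.18. Among genes whose longest transcript was under 1000 bases, the median was 0.08 for respiratory and 0.01 for other genes. From 1000 to 2000 bases it was -0.04 and -0.15, and from 2000 to 4000 bases -0.14 and -0.20, gaps that were not tested.

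At 24 months most respiratory genes of the F series lay above their 3-month level, and none was called. limma called 0 of 81 genes, where it called 2.09% of all genes (118). With genes under a mean of 50 left out, which kept 61 of the 81, 5 were called, all higher (Uqcr11, Cox7a2, Ndufa12, Atp5h and Atp5g1). The 2.09% belongs to the full set of genes and is not the background of this setting. At an unadjusted p under 0.05 with the same fold 14 respiratory genes were higher and 0 lower (17.3%), where 10.9% of all genes passed and 6.09% of all genes were higher. The difference was above 0 for 76 of 81 genes, with a median of 0.38 against -0.02 for all genes. For 46 genes all 3 libraries at 24 months were above all 4 at 3 months, where 13.1% of all genes were. The 3-month libraries are the same in every F comparison, so that these ages are not independent of each other. In simulated data with the same group sizes and with noise independent between genes, a 1.5-fold change was called for 7% of changed genes and a 2-fold change for 54%.

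Complex IV had the highest median difference. All of its 12 genes were higher at 24 than at 3 months, from 0.37 to 0.62 with a median of 0.53, and the mean level over the complex was 6.76 (6.65 to 6.84) at 3 months and 7.26 (7.25 to 7.26) at 24 months. Cox7a2 (chr9:79755361-79759878, minus strand), the widely expressed isoform of a small structural subunit, was at 49, 50, 51 and 63 at 3 months and at 80, 82 and 84 at 24 months (0.62, SE 0.19, adjusted p = 0.073). Cox4i1 (chr8:120668222-120674207, plus strand) was at 265, 269, 277 and 291 against 339, 378 and 429 (0.46, adjusted p = 0.073). In neither gene did the groups overlap.

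In complex III all 9 genes were higher (median 0.44). Uqcr11 (chr10:80402997-80406830, minus strand) was at 128, 129, 147 and 147 at 3 months and at 206, 216 and 245 at 24 months (0.69, adjusted p = 0.080). The groups did not overlap for Uqcrc1 either, with 183, 198, 215 and 228 against 258, 267 and 313 (0.44). Of the redox subunits, cytochrome c1 (Cyc1) differed by 0.43 and the Rieske iron-sulfur protein (Uqcrfs1) by 0.24. In complex V all 16 genes were above 0 (median 0.30). Atp5h was at 100, 116, 120 and 125 against 153, 189 and 194 (0.63), while the catalytic Atp5b (0.15) and also Atp5a1 (0.26) differed less. Of the 3 genes that encode the same c-ring protein, Atp5g1 differed by 0.60 (75, 82, 82 and 86 against 121, 122 and 129), Atp5g2 by 0.10 and Atp5g3 by 0.11.

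In complex I, 34 of 36 subunits were above 0 (median 0.33). Ndufa12, an accessory subunit, was at 54, 67, 72 and 79 at 3 months and at 109, 119 and 119 at 24 months (0.77, SE 0.24, adjusted p = 0.079). The 7 nuclear-encoded core subunits had a median of 0.14 and the 29 accessory subunits one of 0.38. The NADH-binding flavoprotein Ndufv1 stood at 0.01 and the iron-sulfur protein Ndufs1 at -0.17. The largest difference of all 81 genes was that of the assembly factor Ndufaf8 (0.87, adjusted p = 0.10), and the lowest that of Ndufaf1 (-0.50). In complex II, Sdhb was at 125, 136, 155 and 164 against 189, 193 and 200 (0.43), whereas the flavoprotein Sdha (chr13:74322254-74350280, minus strand) was at 99, 115, 117 and 120 against 94, 103 and 126 (-0.07) with overlapping groups, and the median of its 4 genes was 0.09.

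**Figure D2:**
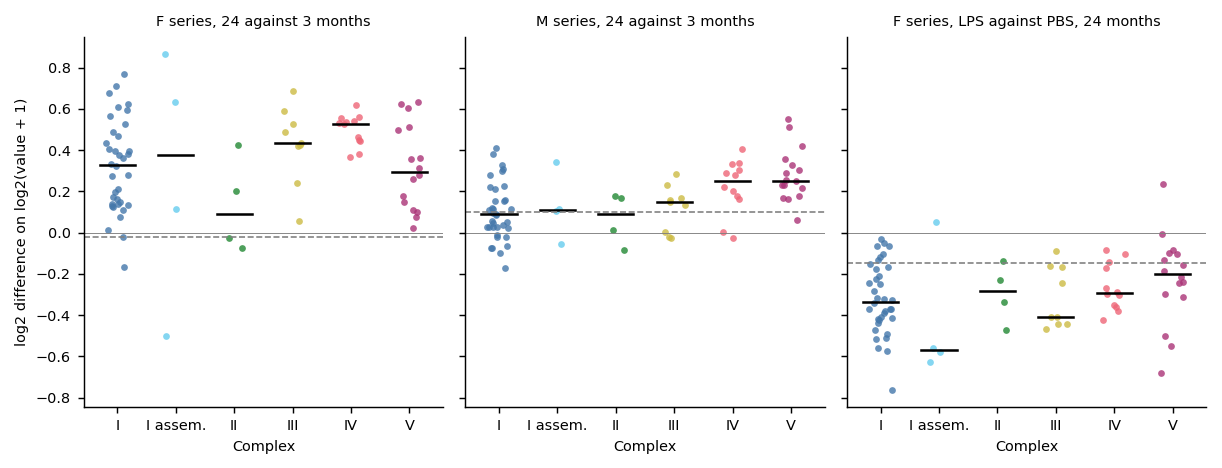
Log2 difference of each respiratory gene on log2(value + 1), by complex, for 24 against 3 months in the F series and in the M series and for LPS against PBS at 24 months; points are genes, black bars medians of a complex and dashed lines the median of all 5647 genes. In the F series the median of complex IV is 0.53 and that of complex II 0.09, and with LPS at 24 months 79 of the 81 points lie below 0.

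Several measures moved with the 24-month difference, and their part in it was not tested. The 82 cytosolic ribosomal protein genes had a median of 0.54 (19 rose), and the 68 mitochondrial ribosomal protein genes one of 0.23 (0 called by limma, 4 higher and 1 lower at an unadjusted p under 0.05 with the fold). The 4 measured markers of T and NK cells all rose (median 2.60, mean level 3.55 at 3 months and 6.05 at 24), 3 of 10 dissociation-linked genes rose (Atf3, Dusp1 and Hspa1a), and 2 of 12 neutrophil markers fell. The microglia markers had a median of -0.47, with 0 of 6 called. With only libraries whose Eif2s3y level went with the label (1 at 3 and 2 at 24 months), the median of the respiratory genes was 0.29. Other genes of the pathway were set beside them, without a test of the difference. The 18 tricarboxylic acid cycle genes had a median of -0.03, the 25 other assembly factors one of -0.01 and the 10 electron carriers and coupling proteins one of 0.28, with 0 called in each, as among the 81 respiratory genes.

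The respiratory transcripts are short. Their longest protein-coding transcript had a median of 918 bases, against 2650 for all genes, and 44 of 81 (54.3%) were under 1000 bases, against 7.90% of all genes. Over 5597 genes the 24-month difference fell with transcript length (Spearman's rho -0.42, across genes, which are not independent replicates). Among genes under 1000 bases, the 44 respiratory genes had a median of 0.44 and the 398 other genes one of 0.34. The 37 respiratory genes of 1000 bases or more had a median of 0.21 (33 above 0). From 1000 to 2000 bases the medians were 0.21 for 27 respiratory and 0.12 for other genes. From 2000 to 4000 bases they were 0.14 for 8 respiratory and -0.05 for other genes, and from 4000 bases on 0.59 for 2 respiratory and -0.22 for other genes. None of these gaps was tested.

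**Figure D3:**
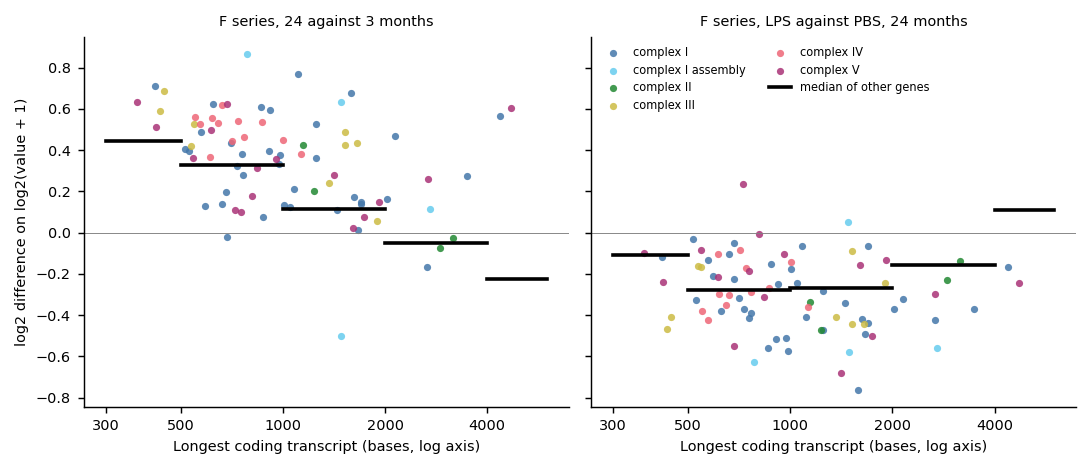
Log2 difference of each respiratory gene on log2(value + 1) against the length of its longest coding transcript (bases, log axis), coloured by complex, with black bars for the median of all other genes in the same range of lengths. For 24 against 3 months (left) shorter transcripts of both kinds are higher, with medians of 0.44 for respiratory and 0.34 for other genes under 1000 bases; for LPS at 24 months (right) the medians are -0.26 for both under 1000 bases, and in longer transcripts -0.36 against -0.27, -0.34 against -0.16 and, from 4000 bases on, -0.21 against 0.11, with respiratory genes first.

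In the M series no respiratory gene was called at any age, and the median differences from 16 months on lay above 0. The mean level over the 81 genes was 6.13 at 3 months (6.04 to 6.29), 6.38 at 16 months (6.21 to 6.52), 6.36 at 19 months (6.20 to 6.62) and 6.29 at 24 months (6.10 to 6.55), and the last ranges overlapped the first. limma called 0 genes at 6, 9, 12, 16, 19 and 24 months and across the ages (background 0%, 0.0354%, 0.903%, 6.29%, 3.05%, 2.85% and 8.36%). At an unadjusted p under 0.05 with the fold there were 1 at 6 months (3.21% of all genes), 3 at 16 months (10.3%), 3 across the ages (14.2%) and 0 at 9, 12, 19 and 24 months (4.82%, 8.48%, 6.16% and 7.05%). The adjusted p across ages was under 0.05 for Cox4i1 alone (0.48 at 16 months, adjusted p = 0.043; 11.8% of all genes passed by the adjusted p), at less than the 1.5-fold threshold.

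At 16 months, 70 of 81 genes were above their 3-month level, with a median of 0.24 against 0.00 for all genes, and 16 genes were higher without overlap, where 7.7% of all genes were. Over 5597 genes this difference also fell with transcript length (Spearman's rho -0.37). Under 1000 bases the 44 respiratory genes had a median of 0.29 and the 398 other genes one of 0.24. From 1000 to 2000 bases the medians were 0.21 for 27 respiratory and 0.09 for other genes. From 2000 to 4000 bases they were 0.16 for 8 respiratory and -0.02 for other genes. None of these gaps was tested. Complex IV (median 0.44, 11 of 12 above 0) and complex V (0.32, 16 of 16) stood above complex I (0.20, 31 of 36), complex III (0.23) and complex II (0.04). Ndufb9, an accessory subunit of complex I, came nearest to a call, at 72, 72, 79 and 97 at 3 months and 100, 123, 129 and 130 at 16 months (0.59, SE 0.19, adjusted p = 0.060). Cox4i1 was at 226, 238, 280 and 282 against 266, 383, 385 and 415, so that 1 library at 16 months stayed within the 3-month range. Without 16-month library 3, which held the lowest of these values in Cox4i1, 3 genes were called (Ndufb9, Atp5h and Cox4i1), and without 3-month library 2, 1 was called (Ndufb9).

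At 24 months the median was 0.16, against 0.10 for all genes, and 68 of 81 genes were above 0. The medians were 0.25 for complexes IV and V and 0.09 for complex I. Some core subunits stood among the higher genes here, with Atp5a1 at 0.33 (adjusted p = 0.19), Atp5b at 0.29 and Ndufv1 at 0.38, whereas Sdhb (-0.08) and Uqcrc1 (-0.02) were near 0. The remaining core subunits were at 0.30 (Cox4i1), 0.29 (Cox5a and Uqcrfs1), 0.23 (Ndufs1), 0.17 (Sdha) and 0.16 (Cyc1). At 19 months 76 of 81 genes were above 0 (median 0.23, all genes 0.06), with the smallest adjusted p for Ndufaf3, an assembly factor (0.51, 0.12). Among genes under 1000 bases, the medians at 19 months were 0.25 for respiratory and 0.22 for other genes. They were 0.12 for both from 1000 to 2000 bases, and 0.21 and 0.05 from 2000 to 4000. At 24 months the medians under 1000 bases were 0.17 for respiratory and 0.13 for other genes. At 6, 9 and 12 months the core subunits ranged between -0.33 and 0.45. Markers of T and NK cells (4 of 4), neutrophils (10 of 12 at 16 months, 7 of 12 at 24) and Acod1, the LPS-inducible itaconate synthase (3.31 at 24 months), rose in the same libraries, and the cytosolic ribosomal protein genes had medians of 0.42 and 0.40. Their part in the respiratory genes' levels was not tested. Of the M libraries, all at 12, 16 and 24 months, 4 of 5 at 19 months and 2 of 4 at 3 months hold no values between 0 and 1, and within these libraries the medians were 0.19, 0.22 and 0.12 at 16, 19 and 24 months, with 0 genes called. In the F series all libraries at 16 months and none at 3 months are of this kind, which cannot be told apart from age.

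**Figure D4:**
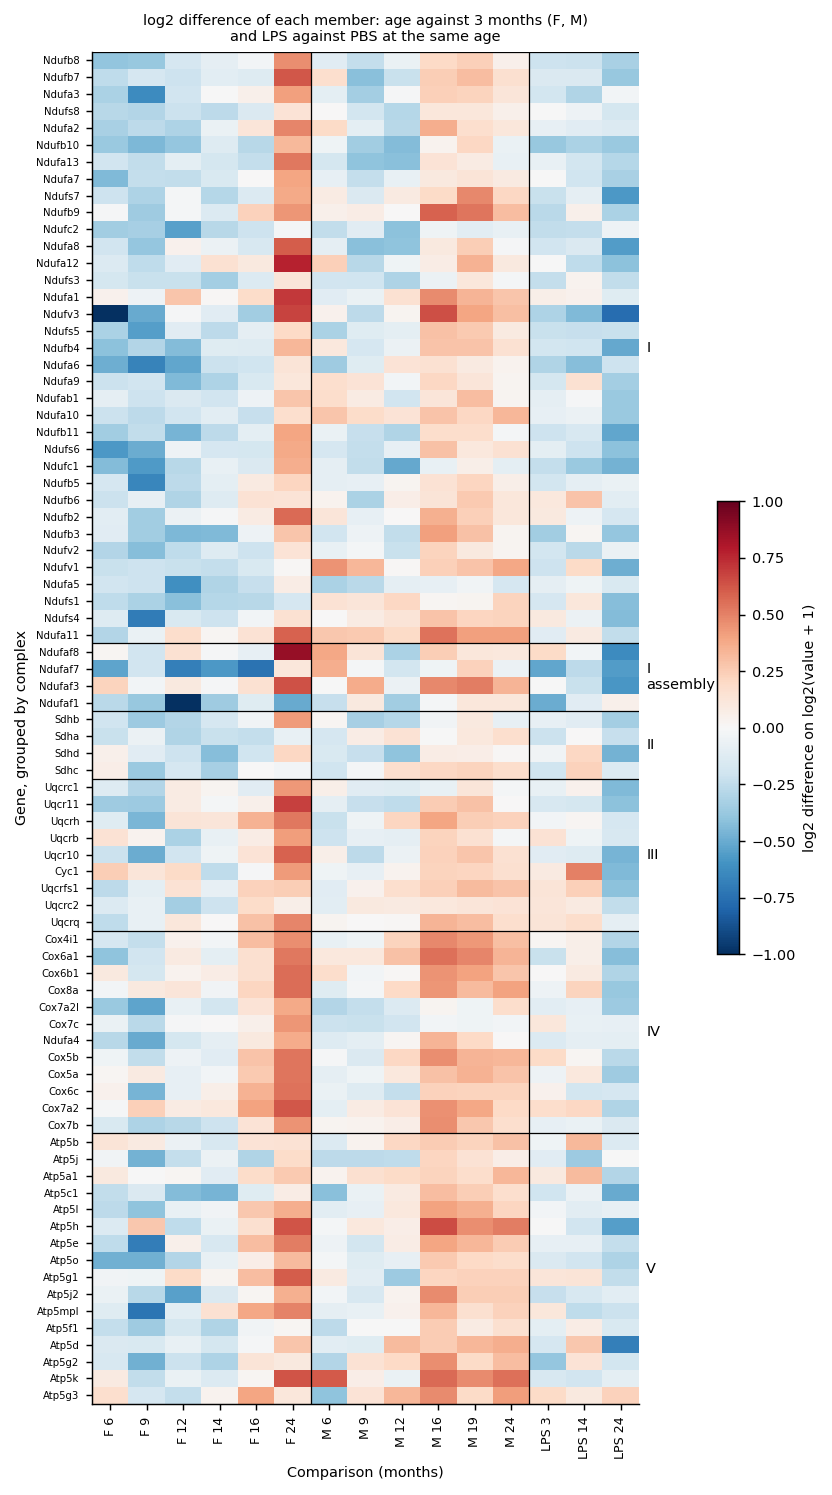
Heat map of the log2 difference on log2(value + 1) of the respiratory genes (rows, grouped by complex; 1 gene is not shown) in 15 comparisons (columns: each age against 3 months in the F and M series, then LPS against PBS at 3, 14 and 24 months); red is higher, blue lower, and the colour scale ends at a difference of 1. The columns F 9 and LPS 24 are mostly blue, with 74 and 79 of 81 genes below 0, and F 24 is mostly red, with 76 above 0.

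Whether the 24-month difference itself differed between the series was tested directly. limma called 0 respiratory genes (background 0.0177%), and at an unadjusted p under 0.05 with the fold Ndufaf8 and Ndufa12 were higher in the F series (background 7.05%). The smallest adjusted p of the 81 genes was 0.49, for Ndufaf8 (0.76) and Sdhb (0.51). Over the 6 ages that both series share, no respiratory gene passed the test between the F and M series (0 called by limma, also 0 at an unadjusted p with the fold, background 0.23% and 0.673%), with the smallest adjusted p for Ndufaf3 (0.27, adjusted p = 0.13). As 3 of 4 F libraries at 3 months and 4 of 4 M libraries at 24 months go against their sex label by Eif2s3y, sex and label cannot be told apart in these contrasts.

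LPS was compared with PBS at the same age to ask how the respiratory genes stood 2 h after the challenge. At 3 months and 14 months limma called 0 of 81 genes, and 0 passed an unadjusted p under 0.05 with the fold (background of calls 11.2% and 1.81%, and 17.3% and 5.99% at the unadjusted p). The medians were -0.10 and -0.06, beside -0.14 and 0.02 for all genes, and the former became 0.01 with median ratios. At 14 months Cyc1 had the smallest adjusted p, at 42, 47, 56, 57 and 58 with PBS and 59, 64, 66, 72 and 120 with LPS (0.50, adjusted p = 0.078), 2 groups that did not overlap. At that age 2 of the 81 genes were higher without overlap, where 2.16% of all genes were. The value of 120 came from 1 library. Core subunits ranged from -0.21 (Sdha) to 0.13 (Uqcrfs1) at 3 months and, apart from Sdhb (-0.11), were above 0 at 14 months, with Atp5a1 and Atp5b at 0.32.

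At 24 months 79 of 81 genes were lower with LPS, and 1 was called (background 9.7%, 5.44% lower). This was Ndufv3, at 117, 124 and 131 with PBS and at 66, 70 and 83 with LPS, without overlap (-0.76, SE 0.23, adjusted p = 0.034). Its adjusted p was 0.057 with median ratios and 0.058 with equal totals, and it rose to between 0.065 and 0.11 without LPS library 1 or 3 or PBS library 1 or 2. Without LPS library 2, 4 genes were called (Ndufv3, Ndufs7, Atp5d and Cox6a1). By the adjusted p alone 3 genes passed (10.5% of all genes): Ndufv3, Ndufs7 (-0.57, adjusted p = 0.027), the iron-sulfur subunit nearest to the quinone, and Atp5h (-0.55, adjusted p = 0.047).

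Ndufs7 (chr10:80249121-80256794, plus strand) was at 143, 144 and 150 with PBS and at 87, 92 and 116 with LPS. Atp5h was at 153, 189 and 194 with PBS and at 111, 123 and 130 with LPS. In both genes every LPS library lay below every PBS library, which was so for 29 of the 81 genes (17.2% of all genes). In other genes the LPS libraries were scattered: Cox4i1 was at 229, 300 and 437 with LPS and at 339, 378 and 429 with PBS, and Uqcr11 at 136, 152 and 225 against 206, 216 and 245, the highest values coming from LPS library 2 in both.

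The median over the respiratory genes at 24 months was -0.30, against -0.15 for all genes, and it was -0.18 with median ratios and -0.13 with equal totals, where the median of all genes was -0.03 and 0.02. By complex it was -0.33 for complex I (36 of 36 below 0), -0.28 for complex II, -0.41 for complex III (9 of 9), -0.29 for complex IV (12 of 12) and -0.20 for complex V (15 of 16). All 11 core subunits were below 0, from -0.49 (Ndufv1) to -0.13 (Atp5b), with Cyc1 and Uqcrc1 at -0.44, Ndufs1 at -0.42, Uqcrfs1 at -0.41, Cox5a at -0.35, Sdhb at -0.34, Atp5a1 at -0.30, Cox4i1 at -0.29 and Sdha at -0.23. The c-ring genes differed in direction, with Atp5g1 at -0.25, Atp5g2 at -0.18 and Atp5g3 at 0.23. The 24-month PBS libraries of this comparison are those that stood high against 3 months above, so the 2 differences share them. The LPS libraries at 24 months had a mean level of 6.28 (6.19 to 6.42), against 6.23 in the PBS libraries at 3 months.

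**Figure D5:**
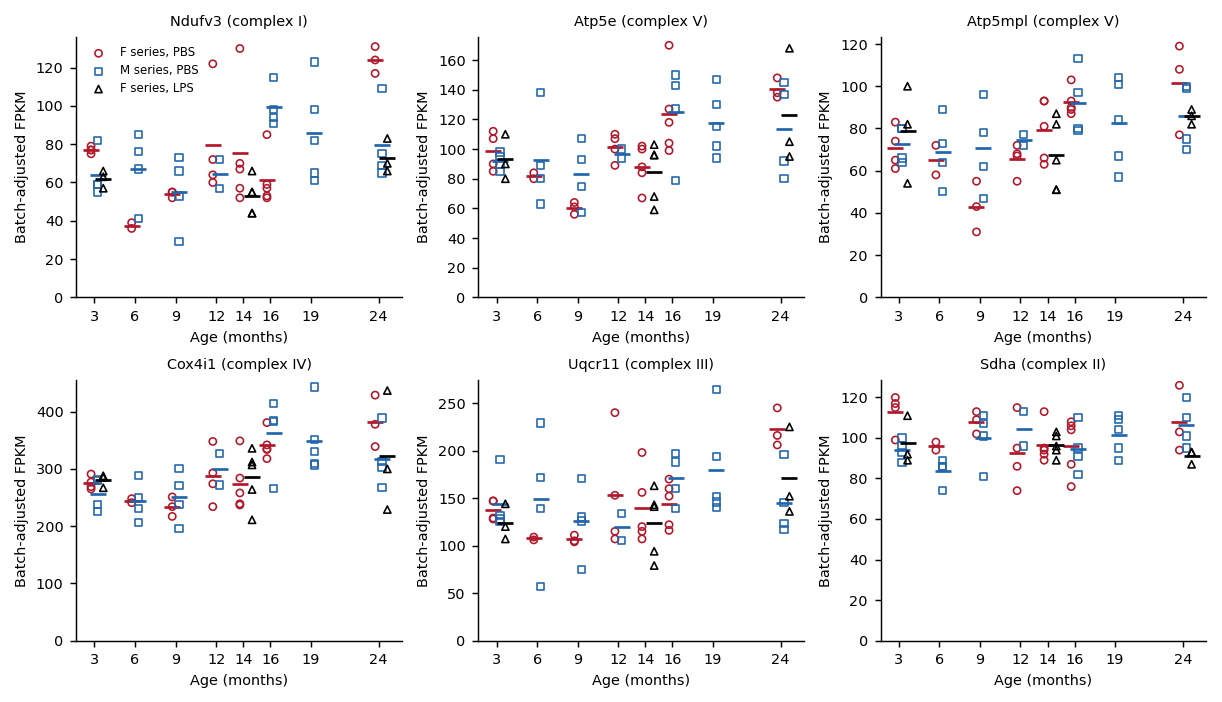
Batch-adjusted FPKM per library against age in months for Ndufv3, Atp5e, Atp5mpl, Cox4i1, Uqcr11 and Sdha; circles are F series PBS, squares M series PBS, triangles F series LPS and bars group means. Ndufv3 is at 36 and 39 in the F libraries at 6 months, at 117 to 131 at 24 months and at 66 to 83 with LPS at 24 months, while the F groups of Sdha at 3 and 24 months with PBS overlap.

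No respiratory gene passed the test of a different LPS response at 24 or at 14 than at 3 months (0 called by limma in each, background 0% and 0.301%). At 24 months the median difference in response was -0.22, against -0.04 for all genes and -0.19 for other genes under 1000 bases. All 11 core subunits were below 0. At 14 months the median was 0.03, against 0.11 for all genes, and 10 of the 11 core subunits were above 0. These shifts as a set were not tested. At an unadjusted p under 0.05 with the fold 1 gene was lower at 24 months (Ndufaf8, -0.82, adjusted p = 0.39; background 10.2%) and 0 at 14 months (8.04%). For Ndufv3 the response differed by -0.45 between 24 and 3 months (SE 0.31, adjusted p = 0.58). Other genes moved clearly in the same libraries. Acod1 rose by 3.61, 4.09 and 3.90 at 3, 14 and 24 months and Sod2, the mitochondrial superoxide dismutase, by 1.60, 1.28 and 1.61. Myc, a regulator of mitochondrial and ribosomal genes, rose at 3 and 14 months (1.09 and 0.85), while Nrf1, Hif1a and the cytochrome c gene Cycs were not called with LPS at any age.

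At 24 months 7 of 68 mitochondrial ribosomal protein genes fell with LPS (median -0.25), 0 of 82 cytosolic ones were called (median -0.14; 0 at an unadjusted p with the fold), and 0 of 18 tricarboxylic acid cycle genes were (-0.10; 0 at an unadjusted p with the fold). At 3 months Idh2 of that cycle (-0.59) and the complex I assembly factor Tmem126b (-0.94) fell. In the same 24-month libraries 5 of 10 dissociation-linked genes (median -0.84) and 2 of 4 T and NK markers fell, and 3 of 12 neutrophil markers rose. Their part in the respiratory genes' difference was not tested.

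Within groups, the respiratory genes varied together from library to library. After the group means were removed, the median Pearson correlation over 64 libraries was 0.41 for the 1008 pairs of the same complex and 0.40 for the 2232 pairs of different complexes, against 0.01 between a respiratory gene and genes outside the lists, so that it was hardly higher within a complex than between them. For these pairs the assembly factors were counted in complex I. With cytosolic ribosomal protein genes it was 0.39. All pairs share the libraries and their scaling, and after scaling to equal totals the values were 0.28, 0.26 and 0.26. Cox6b1 (0.58), Uqcr11 (0.57) and Cox7c (0.56), all short transcripts of complexes III and IV, had the highest median correlation with the other respiratory genes. Sdha (-0.24), Ndufs1 (-0.10), Atp5d (-0.08) and Atp5a1 (-0.07) had the lowest.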

How the data were processed

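Libraries were made by oligo-dT priming with template switching and read on a BGISEQ-500. Per the labels and the study's methods, reads were filtered with SOAPnuke 1.5.2, HISAT2 2.0.4 and Bowtie2 2.2.5 were used for alignment (build mm10), and RSEM 1.2.12 gave FPKM. The authors then removed batch effects with ComBat_seq of SVA 3.35.2 and dropped genes with a mean under 10 FPKM. The deposited values are this adjusted FPKM, treated here as a score because nearly all are whole numbers (297 are fractional) and neither counts nor depth are kept. The 21 libraries without any value between 0 and 1 include all of the F group at 16 months and the M groups at 12, 16 and 24 months.

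Values were analysed as log2(value + 1) with limma 3.58.1 in R 4.3.3 (empirical Bayes with a variance trend), the F series, M series, LPS experiment and the 6 shared ages each in its own fit, and p-values adjusted by Benjamini-Hochberg over 5647 genes. The added 1 shrinks the log2 differences of weakly expressed genes. Calls needed an adjusted p under 0.05 together with more than a 1.5-fold difference. FPKM not being counts, the count test of the study was not used. Python 3.11.15, pandas 2.3.3, NumPy 2.4.6, SciPy 1.17.1 and matplotlib 3.10.9 served for summaries, lengths (GENCODE vM21, in which all 81 genes were found) and figures.

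Genes were named by rule: up to 5 called genes in each direction per comparison or, with none, the gene with the smallest adjusted p; 11 core subunits; c-ring and tissue isoforms; the highest and lowest of each complex; and selected or called genes of the pathway lists. Genes shown beyond that were chosen after their values were seen. The values of 1 gene are not reported here. The genes and lists were chosen with earlier results of these data known. The fits were tested on simulated data with 100 changed genes per fold size, with 1 to 5 false calls among 5447 unchanged genes. The simulated noise was independent between genes, while the measured genes varied together within groups, so these rates need not hold for the measured data. Alternatives were a pseudocount of 5, leaving out genes with a mean under 50, median-ratio scaling, scaling to equal totals, the replicate number as a block, leaving out each library, only the libraries without values between 0 and 1 and, added after the data were seen, only libraries whose Eif2s3y level went with the label. Libraries of different groups with the same replicate number in their titles did not deviate together (median correlation of residuals from -0.0044 to 0.014), so these numbers were not taken as pairs. The replicate block used the same title numbers. In some groups the data columns carry other numbers, which were not checked for pairing.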

Additional observations from a re-analysis of the deposited data

Results flagged for a closer look

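In groups of 4 or more libraries, the highest or lowest library was set against the rest by Dixon's criterion, for the mean log2 level of all respiratory genes and of each complex with several genes and for 5 genes. In 9 of 121 tests, each of 1 group for 1 measure, a library stood apart, where chance alone gives about 1 in 20 of independent tests. These tests covered 11 groups and share libraries and correlated genes, so that this rate is only a rough guide. The mean level of all respiratory genes was 5.693 in M library 1 at 6 months, beside 6.182 to 6.248 in the other libraries. That of complex III was 6.528 in F library 3 at 16 months (others 6.354 to 6.399) and 6.516 in M library 2 at 3 months (6.176 to 6.224), and that of complex V was 6.539 in F library 1 at 12 months (6.307 to 6.326). Ndufv3 stood at 130 in F library 3 at 14 months (52 to 70), at 85 in F library 1 at 16 months (52 to 59) and at 82 in M library 2 at 3 months (55 to 59). Ndufaf7 was at 33 in F library 3 at 12 months (13 to 15), and Uqcr11 at 191 in M library 2 at 3 months (125 to 132).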

How the results depend on the processing

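Counts of called respiratory genes were small and moved with the settings. At 9 months in the F series 2 became 0 with median ratios, with equal totals and with only libraries whose Eif2s3y went with the label (which leaves 1 library at 3 months in the F series, assumed to vary like the other groups), and at 16 months 1 became 0 in these settings and with genes under a mean of 50 left out. Across the 7 ages of the F series 8 became 1 with either scaling and 2 with the Eif2s3y setting. Leaving out genes with a mean under 50 gave 5 in place of 0 at 24 months (Uqcr11, Cox7a2, Ndufa12, Atp5h and Atp5g1), 2 in place of 0 at 16 months in the M series, 1 in place of 0 across the M ages and 2 in place of 1 for LPS at 24 months, since fewer genes were then tested. LPS at 24 months gave 0 with median ratios, equal totals and the Eif2s3y setting, which gave 1 at 16 months in the M series (Atp5h). With the replicate block, the count was 0 at 16 months and 5 across the ages in the F series; it changed no other count. Leaving out 1 library gave 0 to 5 at 9 months, 0 to 1 at 12, 0 to 1 at 16 and 4 to 13 across the ages in the F series (13 without library 3 at 14 months, 4 without library 1 at 3 months or library 2 at 24 months), 0 to 3 at 16 months and 0 to 1 across the ages in the M series and 0 to 4 for LPS at 24 months, and 0 throughout in the other comparisons. The age of the largest deviation changed for Atp5e with median ratios (0.52 in place of -0.69) and for Uqcr10 with the replicate block (-0.55 in place of 0.59), the Eif2s3y setting (-0.61) and without 3-month library 1 (-0.54; the values without 1 library ran from -0.54 to 0.68). The cause of these changes was not tested. The median difference at 24 months in the F series stayed between 0.29 and 0.41 under the 6 alternatives other than leaving out 1 library. Restricting the M series to libraries that hold no value between 0 and 1 left its counts at 0. Scaling also moved the median of all genes. With median ratios it went from -0.16 at 6 months, -0.19 at 9, 12 and 14 months and -0.18 at 16 months in the F series to between -0.02 and 0.00, from -0.14 and -0.15 for LPS at 3 and 24 months to -0.03 in both, and from 0.09 to -0.01 at 9 months in the M series. With equal totals it went from 0.00 to -0.12 at 16 months, from 0.06 to -0.08 at 19 months and from 0.10 to -0.01 at 24 months in the M series. The rule calls no change under 1.5-fold. In simulated data a change of exactly 1.5-fold was called for 7% of changed genes at 24 months in the F series, 26% in the M series, 11% for LPS at 24 months and 50% for F against M, where 96% passed the adjusted p alone. The depth is unknown. The Eif2s3y setting could not be run for M 24 against 3 months, where no library remained.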
